A study of Homo sapiens with 21 samples.

Results

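Keratin genes, 10 in number, are described here in BT-549 cells, a line of triple-negative breast cancer (TNBC), across 7 culture and treatment conditions. The members are KRT5, KRT6A, KRT6B, KRT7, KRT8, KRT14, KRT17, KRT18, KRT19 and KRT80, and all 10 were found by symbol among the 42339 genes of the count table. They were chosen by name around KRT6A, which was itself selected on its higher counts after MUC1 silencing and under GO-203. For these 2 comparisons the members' values are therefore given as a description with no p-value, and nothing is read from the number of members called there.

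Keratins are the intermediate filament proteins of epithelial cells. A filament is built from pairs of one type I (acidic) and one type II (basic) keratin, so that KRT5 pairs with KRT14, KRT8 with KRT18, and KRT6A and its close copies with KRT16 and KRT17. In the breast, KRT8, KRT18, KRT19 and KRT7 are used as markers of luminal cells and KRT5, KRT14 and KRT17 of basal cells, whereas KRT6A is known as a keratin of stressed or regenerating epithelium.

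Poly(A) RNA was sequenced from 21 libraries, 3 for each condition. BT-549 cells, which are wild-type for BRCA1, were grown as a monolayer in serum-containing medium (2D cells) or as mammospheres in serum-free medium on ultra-low attachment plates, and were collected at passage 6 (3D cells). A further set of passage 6 mammospheres received 0.75 µmol/L GO-203, a peptide inhibitor of the MUC1-C subunit. The other mammospheres carried a doxycycline (DOX)-inducible shRNA in the pLKO-tet-puro vector, with 1 shRNA sequence per target. Those with tet-MUC1shRNA were at passage 6 and those with tet-MYCshRNA at passage 8, and each was given 0.1% DMSO (vehicle) or 500 ng/ml DOX. No mammospheres with a control shRNA and DOX are among the 21 libraries, so the effect of DOX and that of silencing cannot be told apart. The libraries are described as triplicate experiments, and the p-values below measure the spread between them, which may be in part technical.

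The libraries held between 38026597 and 99751717 counts (median 53548353). Levels are CPM values, in which a count is divided by the size of its library after scaling by the trimmed mean of M-values (TMM) across the 21 libraries. MUC1 was at 101, 83.1 and 86.6 CPM in the vehicle-treated tet-MUC1shRNA libraries and at 19.7, 21.2 and 23.3 CPM with DOX. MYC was at 439, 418 and 386 CPM in vehicle-treated tet-MYCshRNA libraries and at 244, 279 and 297 CPM with DOX, a log2 fold change of -0.62 (SE 0.0801, adjusted p = 9.05e-05, edgeR quasi-likelihood test). Both targets thus lay lower in every DOX-treated library than in any vehicle-treated library of the same line. Among the markers of luminal cells, EPCAM was at 0 counts in 4 of the 7 groups, while the mesenchymal filament gene VIM was at 1178 ± 14.5 CPM (SD over 3 libraries) when grown in 2D. The 8 luminal markers, KRT8, KRT18 and KRT19 among them, summed to between 0.466 and 4.11 CPM in any library, so that these 8 were near absent although the labels give epithelial breast as the source. KRT7, which is not one of the 8, was at 5.83 to 86.2 CPM. The sums were highest, at 3.31 to 4.11 CPM, in the MUC1-silenced libraries. In bulk RNA, more cells that express a keratin and more keratin RNA per cell cannot be told apart.

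Of the members, KRT5, KRT6A, KRT6B, KRT7, KRT8 and KRT80 lie in the type II cluster on chromosome 12 of GRCh38, together with the type I gene KRT18 at its end, and KRT14, KRT17 and KRT19 lie in the type I cluster on chromosome 17. KRT6A (ENSG00000205420.11) spans chr12:52487176-52493257 on the minus strand, 21.3 kb from KRT5 (ENSG00000186081.12), which spans chr12:52514575-52520530 on the same strand. KRT6B (chr12:52446651-52452146) and the non-member KRT6C (chr12:52468516-52473805) are the nearest relatives of KRT6A. Over 1695 coding bases of their canonical transcripts, KRT6A differed from KRT6B at 43 bases (97.5% identical) and from KRT6C at 35 bases (97.9% identical). The stretch of 60 bases within a single exon that held the most differences, 9 in all, is shown because it is one of the places where a read can be given to a single copy. It lies in exon 2 of each gene, at coding bases 663 to 722, and the capitals mark each base at which the copies are not all alike.
KRT6A (chr12:52491555-52491614): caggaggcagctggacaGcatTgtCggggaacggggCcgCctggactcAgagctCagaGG
KRT6B (chr12:52450439-52450498): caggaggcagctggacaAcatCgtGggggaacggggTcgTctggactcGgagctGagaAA
KRT6C (chr12:52472099-52472158): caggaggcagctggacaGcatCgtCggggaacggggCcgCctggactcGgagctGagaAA

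Elsewhere the copies often share whole reads. Of the 50-base windows of the KRT6A transcript, 39.2% also occurred in another gene, and KRT6C held 35.2% and KRT6B 28.6% of them. The share was 53.1% for KRT6C, 46.6% for KRT6B, 39.2% for KRT8, 35.3% for KRT18, 24.2% for KRT14 and 17.4% for KRT17. It was 4.52% for KRT5, 1.79% for KRT19, 1.08% for KRT7 and 0.418% for KRT80. How reads that match several genes were counted is not given in the sources used here, so the counts of KRT6A, KRT6B, KRT6C, KRT8, KRT18, KRT14 and KRT17 are uncertain by the reads that such copies could share.

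Of the type II keratins, KRT80, KRT7 and KRT5 were the most abundant, and KRT6A came next. KRT80 had 91412 counts over the 21 libraries, KRT7 45032, KRT5 32932 and KRT6A 3310. The other 6 members had 425 counts (KRT8), 294 (KRT18), 110 (KRT6B), 98 (KRT14), 40 (KRT17) and 10 (KRT19), and are read only where a group's total is above 3 counts. The plot of keratin levels by library shows how far the groups lie apart for the 6 members with the most counts.

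**Figure D1:**
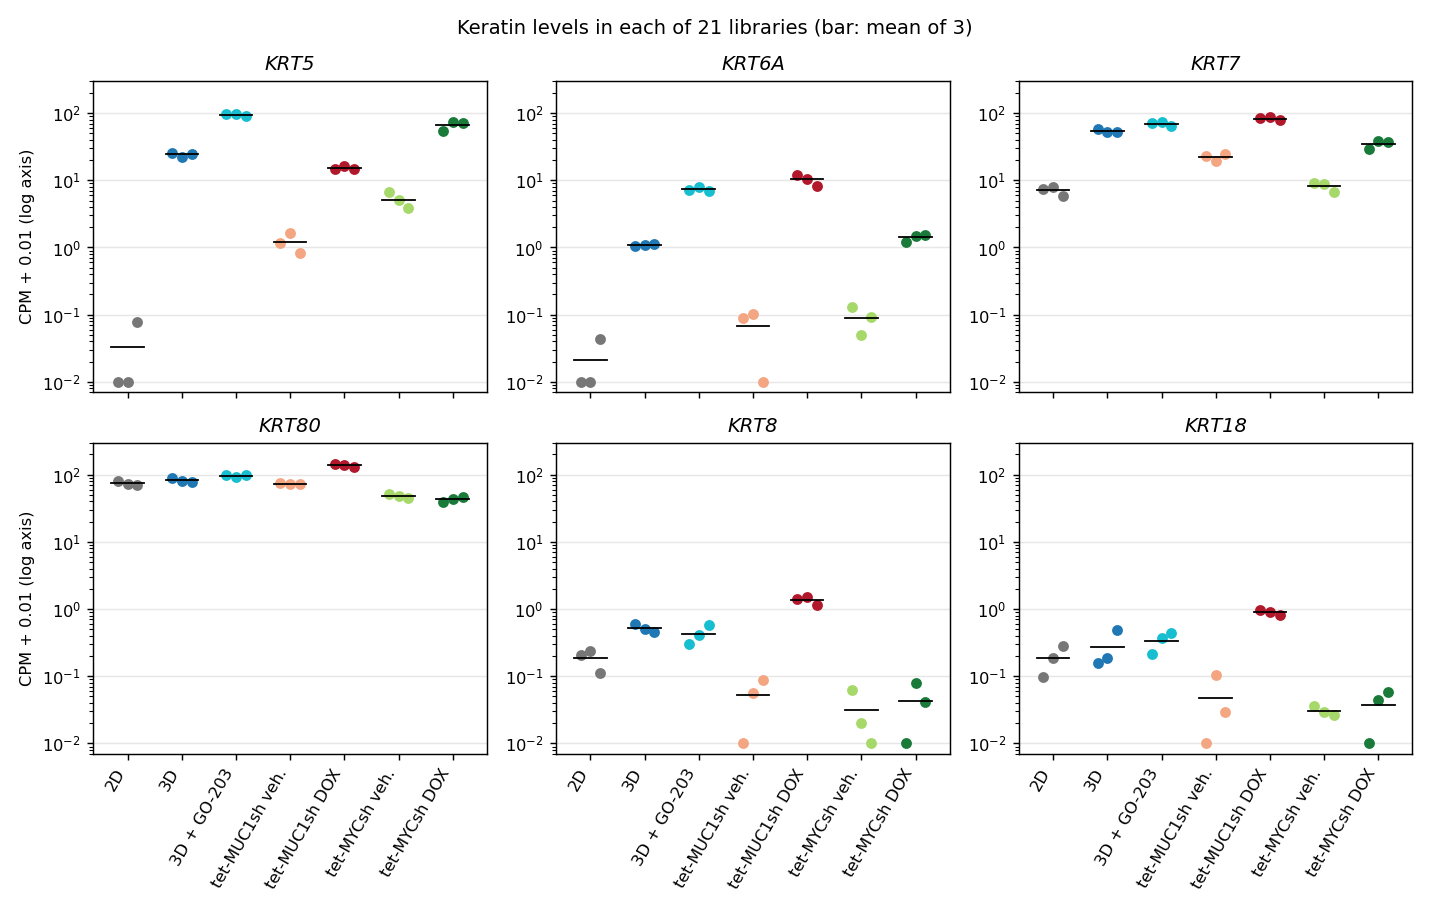
Level of 6 keratins in each of the 21 libraries, by group, as CPM + 0.01 on a log axis. Points are libraries, bars are means of 3, veh. is vehicle and sh is shRNA. KRT5 and KRT6A range from at or near 0 in 2D cells to 97.8 CPM (KRT5 under GO-203) and 12.1 CPM (KRT6A after MUC1 silencing), whereas KRT80 stays between 39.2 and 145 CPM.

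KRT6A, a type II keratin induced in wounded or hyperproliferative epithelium, was close to absent in 2D cells. It had 0, 0 and 2 counts in the 3 libraries of 2D cells and 51, 55 and 73 counts (1.06, 1.07 and 1.13 CPM) in 3D cells. GO-203-treated 3D cells had 7.28, 7.89 and 7.01 CPM. Every 3D library was thus above every 2D library, and every GO-203 library above every untreated 3D library. In the tet-MUC1shRNA mammospheres KRT6A was at 0.0783, 0.0941 and 0 CPM with vehicle and at 12.1, 10.6 and 8.33 CPM with DOX. In the tet-MYCshRNA mammospheres it was at 0.12, 0.0394 and 0.0816 CPM with vehicle and at 1.21, 1.5 and 1.55 CPM with DOX. The groups did not overlap in either line. By their means the 7 groups were ordered from MUC1-silenced cells (10.3 ± 1.92 CPM, SD, n = 3) through GO-203-treated, MYC-silenced and untreated 3D cells to the 2 vehicle-treated lines and 2D cells. Only the last 3 overlapped with their neighbours in this order.

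KRT5, the type II keratin of basal epithelial cells, was likewise close to absent in 2D cells. It had 0, 0 and 4 counts in 2D cells and was at 25.8, 22.1 and 24.9 CPM in 3D cells. With GO-203 it was at 97.8, 97.3 and 90.4 CPM. Vehicle-treated tet-MUC1shRNA mammospheres had 1.17, 1.62 and 0.826 CPM, and those with DOX had 14.8, 16.4 and 14.5 CPM. KRT5 in the MUC1-silenced libraries was therefore above that of their vehicle controls but below that of all untransduced 3D libraries. In the tet-MYCshRNA line KRT5 was at 6.61, 5.00 and 3.85 CPM with vehicle and at 54.6, 73.0 and 70.4 CPM with DOX. No neighbouring groups overlapped in the order of KRT5 levels, from GO-203-treated 3D cells (95.1 ± 4.11 CPM, SD, n = 3) down to 2D cells.

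KRT7, a type II keratin of simple and glandular epithelia, was counted in all libraries. It was at 7.50, 7.94 and 5.83 CPM in 2D cells, 58.7, 51.9 and 51.5 CPM in 3D cells and 70.3, 72.8 and 64.8 CPM with GO-203. In the tet-MUC1shRNA line it was at 22.8, 19.6 and 24.4 CPM with vehicle and 83.3, 86.2 and 79.1 CPM with DOX. In the tet-MYCshRNA line it was at 9.10, 8.68 and 6.73 CPM with vehicle and 29.1, 38 and 36.9 CPM with DOX. The vehicle-treated tet-MYCshRNA libraries overlapped those of 2D cells, and no other neighbours in the order of KRT7 levels did. Exons on the other strand overlap 7.85% of KRT7's exon bases, a share that was not split by gene. The antisense gene KRT7-AS was at 0.185 ± 0.0544 CPM in 2D cells and 4.99 ± 0.561 CPM in MUC1-silenced cells (SD, n = 3). The library kit keeps the strand, but the strand setting of the counting is not given in the sources used here, so reads of this overlap could not be assigned to a strand.

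KRT80, a type II keratin found in many epithelia, was the most abundant keratin in 2D cells and had the narrowest fold range of the 4 members with the most counts. It was at 81.5, 72.1 and 69.8 CPM in 2D cells, 88.6, 80.5 and 78.4 CPM in 3D cells and 97.4, 92.3 and 97.5 CPM with GO-203. In the tet-MUC1shRNA line it was at 74.0, 73.8 and 72.9 CPM with vehicle and at 145, 138 and 130 CPM with DOX. It was at 51.0, 48.0 and 44.8 CPM in vehicle-treated tet-MYCshRNA mammospheres and at 39.2, 44.1 and 46.1 CPM with DOX. The MUC1-silenced libraries stood above all others, and the 2 groups of the tet-MYCshRNA line overlapped each other below all others.

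KRT8 and KRT18, the type II and type I partners of simple epithelia, were low throughout. KRT8 was at 0.200, 0.226 and 0.102 CPM in 2D cells and 0.581, 0.488 and 0.449 CPM in 3D cells. It reached 1.38, 1.5 and 1.14 CPM in MUC1-silenced cells, from 0, 2 and 4 counts in their vehicle controls. KRT18 went with it in this line, with 0, 4 and 1 counts under vehicle and 0.973, 0.891 and 0.794 CPM with DOX. Both members of the pair were highest in the MUC1-silenced group, with no overlap with any other group. In the tet-MYCshRNA line neither gene had more than 4 counts in a library, with vehicle or DOX. KRT8 and KRT18 have 51 and 68 pseudogenes in the annotation, on which 7231 and 1554 counts fell over the 21 libraries, more than on the genes themselves, and the part of these copies in the gene counts was not tested.

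The remaining members were near the limit of detection. KRT6B, the copy of KRT6A, had 46, 33 and 18 counts in the MUC1-silenced libraries and at most 3 in any other. KRT14, the type I partner of KRT5, had 8, 22 and 12 counts in the MUC1-silenced libraries against 0, 2 and 0 with vehicle, 6, 13 and 6 in 2D cells and 0 in all 6 libraries of the tet-MYCshRNA line. KRT17 had at most 7 counts in a library and KRT19 at most 6, and KRT19 was at 0 in 18 of 21 libraries. KRT16, the type I partner of KRT6A, had 9 counts over all 21 libraries. The type II keratins KRT5 and KRT6A thus reached their highest levels in libraries in which their usual type I partners were barely counted.

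Set side by side per kilobase of exon, the type II keratins exceeded the type I keratins in every group. The summed type II level was 19.1 ± 1.52 CPM per kb in 2D cells, 38.9 ± 2.55 in 3D cells and 65.2 ± 1.73 with GO-203 (SD, n = 3). In the tet-MUC1shRNA line it was 22.8 ± 0.407 with vehicle and 60.6 ± 3.13 with DOX, and in the tet-MYCshRNA line 14.4 ± 1.33 and 35.2 ± 4.54. Type I keratins summed to between 2.55 CPM per kb (MUC1-silenced cells) and 5.88 CPM per kb (2D cells), and most of this was KRT10, which was not a member. The ratio of the type II to the type I level ran from 3.15 in vehicle-treated tet-MYCshRNA mammospheres to 23.8 in MUC1-silenced ones. VIM remained 3.40 to 25.1 times as abundant per kb as all type I and type II keratins together.

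The make-up of the type II level differed between conditions. Levels per kilobase use all exon bases of a gene, 4364 for KRT80, 3999 for KRT7 and 4133 for KRT5. Their canonical transcripts have 3873, 1625 and 2238 bases, so the shares below, and which gene holds the largest, depend on this length. Shares by transcript length were not computed. In 2D cells KRT80 made up 89.5% of it and KRT7 9.3%, with 0.0289% from KRT5. In 3D cells the shares were 48.6% for KRT80, 34.7% for KRT7 and 15.1% for KRT5. KRT5 accounted for 35.3% with GO-203 and for 45.3% after MYC silencing, but for 6.08% after MUC1 silencing. KRT6A made up 5.84% of the type II level after MUC1 silencing, 3.87% with GO-203 and 1.38% after MYC silencing. The plot of type II levels by gene shows this shift on one scale.

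**Figure D2:**
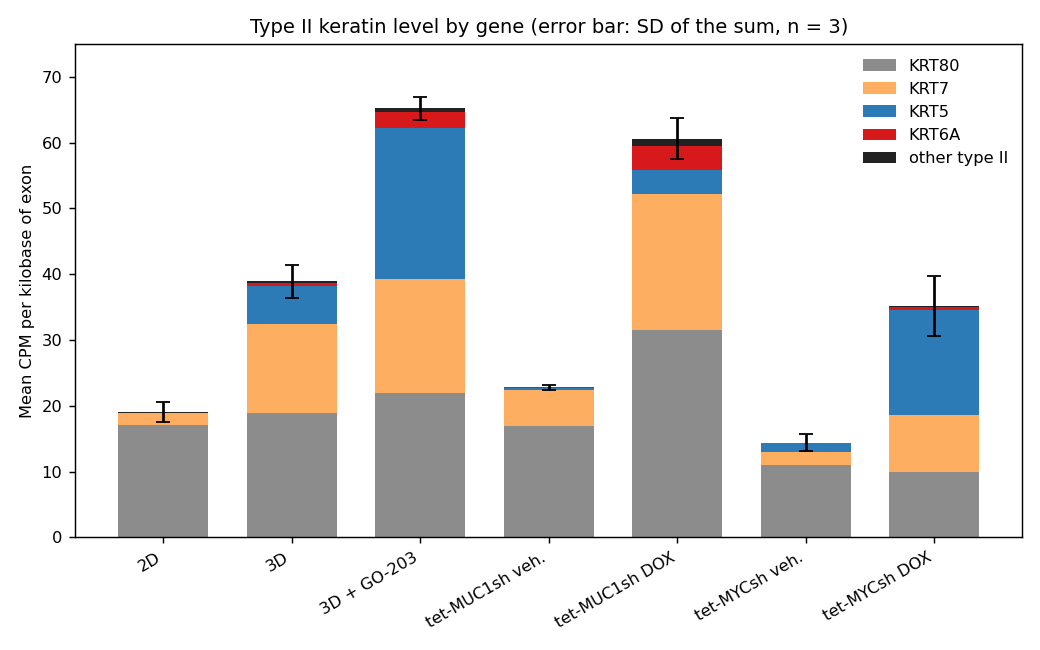
Mean type II keratin level of each group in CPM per kilobase of exon, stacked by gene, with the SD of the summed level over 3 libraries as error bars. KRT80 forms most of the bar in 2D cells (89.5%). KRT5 is the largest part of the group mean in MYC-silenced (45.3%) and GO-203-treated (35.3%) cells. With GO-203 KRT80 is close behind (33.6%) and is the largest part in replicate 3 (35.3%).

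KRT6A and KRT5 did not move in a fixed ratio. For 100 KRT5 counts there were 4.49 KRT6A counts in 3D cells, 7.76 with GO-203, 1.45 in vehicle-treated and 2.15 in DOX-treated tet-MYCshRNA mammospheres. In the tet-MUC1shRNA line there were 4.49 with vehicle and 68.4 with DOX, and the single DOX libraries had 82.3, 64.5 and 57.4. These are ratios of counts, not of levels per length. Of the counts on KRT6A, KRT6B and KRT6C together, KRT6A held 91.8% in 3D cells, 95.2% with GO-203, 90.8% after MUC1 silencing and 90.4% after MYC silencing.

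The comparison of 3D with 2D cells asks which keratins differ when the cells grow as mammospheres. Of the 10 members, 5 passed the filter on low counts. KRT5 and KRT6A passed it by their counts in 3D cells alone, so that a difference was built into their being tested. Of the other 3 (KRT7, KRT8 and KRT80) all were called higher, while over all 19190 genes tested 32.0% passed as higher and 31.7% as lower. The 3D libraries are also the controls of the GO-203 comparison that helped to select KRT6A, so this test is not wholly separate from the choice. No p-value is given for KRT5 and KRT6A. KRT5 was higher by 9.80 on the log2 scale (SE 0.278), and the ratio of its counts was 980 (95% counting interval 383 to 3600), since 2D cells had only 4 counts. KRT6A was higher by 6.21 (SE 0.629), with a ratio of 88.0 (interval 24.0 to 732) against 2 counts in 2D cells. All of these 2D counts were in replicate 3, without which the fitted values were 13.34 for KRT5 and 8.86 for KRT6A. KRT7 rose by 2.93 (SE 0.102, adjusted p = 3.48e-13) and KRT8 by 1.51 (SE 0.459, adjusted p = 0.00972, both edgeR).

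KRT80 had a log2 fold change of 0.14 (SE 0.0704, adjusted p = 0.0953), and its 2D and 3D libraries overlapped. This call was lost without 2D replicate 2 (adjusted p = 0.2), without 2D replicate 3 (adjusted p = 0.294) and without 3D replicate 1 (adjusted p = 0.206, all edgeR). KRT18 was not tested, at 30 counts in 2D and 47 in 3D cells, and neither were KRT14 (25 and 18 counts), KRT17 (9 and 7), KRT19 (8 and 0) and KRT6B (0 and 3). Fibroblast markers fell alongside, from a summed COL1A1 and DCN level of 1030 to 1130 CPM in 2D libraries to 56.5 to 62.6 CPM in 3D libraries, and the endothelial markers PECAM1 and VWF summed to 0.0348 to 0.205 CPM and 5.95 to 7.28 CPM. Of the other basal markers, the integrin ITGB4 rose from 1.85 to 35.3 CPM on average, and TP63, a transcription factor of basal epithelium that passed the filter through 2D cells alone, was at 1.81 and 0.109 CPM. KRT14 and KRT17 were not tested. Of the 5 mesenchymal markers, VIM, FN1, ZEB1 and TWIST1 rose and CDH2 fell, and luminal CDH1 (E-cadherin) had 228 counts in 2D and 0 in 3D cells. Luminal GATA3 went the other way, with 10 and 46 counts, and passed the filter through 3D cells alone. EPCAM, ESR1 and PGR, at no more than 6 counts in either group, were not tested. Leukocyte markers summed to at most 1.62 CPM in any library. Within that sum PTPRC was lower in 3D cells (-4.30, SE 0.466, mean count 34.8) and CD14 higher (2.74, SE 0.698, mean count 13.3). The part of all these markers in the keratin differences was not tested.

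The other mammosphere groups did not repeat the whole pattern. Against 2D cells, vehicle-treated tet-MUC1shRNA mammospheres were higher in KRT7 (log2 fold change 1.65, adjusted p = 2.6e-09) by edgeR's test, and KRT5, with only 4 counts in 2D cells, lay 5.46 higher. Vehicle-treated tet-MYCshRNA mammospheres lay 7.60 higher in KRT5, did not pass the test for KRT7 (0.21, adjusted p = 0.21), and were lower in KRT80 (-0.63, adjusted p = 2.28e-06). KRT6A was not tested in either, at 7 and 18 counts, and KRT8, at 6 and 5 counts, lay below its 2D level, with ratios of 0.262 (95% counting interval 0.0888 to 0.645) and 0.121 (0.0365 to 0.317). In both vehicle-treated lines KRT5 was below 3D cells, at 0.0487 and 0.214 of their level. These 2 lines differ from 3D cells in the vector, in DMSO and, for tet-MYCshRNA, in passage, which cannot be told apart.

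The comparison of DOX with vehicle in tet-MUC1shRNA mammospheres asks which keratins differ when MUC1 is silenced. KRT6A was selected on this comparison, so what follows is a description. Of the 10 members, 7 passed the filter on low counts, KRT6A, KRT6B, KRT8 and KRT18 through the DOX group alone. The 7 were called higher at an adjusted p below 0.1, beside 30.7% higher and 31.6% lower of 19220 genes, and nothing is read from this count. KRT6A was higher by 7.56 (SE 0.306) on the log2 scale, a ratio of counts of 198 (95% counting interval 95.8 to 493). It was 8.18 without vehicle replicate 2 and 6.89 without vehicle replicate 3. KRT6B was at 0 counts with vehicle and 97 with DOX, at least 24.7-fold higher against a floor of 3 counts over the group. KRT6C had 0 and 86 counts, at least 21.9-fold higher on the same floor. How many of the counts on these copies came from KRT6A reads was not tested.

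The simple-epithelial pair followed. KRT8 was higher by 4.84 (SE 0.487), with 6 and 236 counts in the 2 groups, and KRT18 by 4.48 (SE 0.582), with 5 and 154 counts. These rest on few vehicle counts, and were 5.65 for KRT8 without vehicle replicate 3 and 6.05 for KRT18 without vehicle replicate 2. KRT5 was higher by 3.70 (SE 0.155), KRT7 by 1.92 (SE 0.0662) and KRT80 by 0.93 (SE 0.0469). KRT14 was not tested, with 2 counts under vehicle and 42 with DOX, a ratio of 16.0 (95% counting interval 4.17 to 137). KRT17 had 8 counts in each group and KRT19 none. The one type I keratin counted in quantity, KRT10 of the suprabasal epidermis, went the other way, from 8.58 ± 0.353 to 4.18 ± 0.37 CPM (SD, n = 3), a log2 fold change of -1.01 (SE 0.114, adjusted p = 1.6e-07, edgeR). COL1A1 and DCN summed to 174 to 177 CPM with vehicle and 226 to 241 CPM with DOX, 1 of the 2 (COL1A1) passing the test. Of the 5 mesenchymal markers, the transcription factors ZEB1 (-1.42) and TWIST1 (-1.20) and the matrix gene FN1 (-0.51) fell, while CDH2 (N-cadherin, 2.67) and VIM (0.18) rose. Of the luminal markers that are not members, CDH1 went from 4 to 52 counts and GATA3 from 8 to 108. Basal ITGB4 rose (0.93) and endothelial PECAM1 fell (-0.43), while the endothelial VWF, at a mean of 3 counts per library, was not tested. The part of these genes in the keratin differences was not tested.

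The comparison of GO-203-treated with untreated 3D cells asks the same of the MUC1-C inhibitor, and it too was used to select KRT6A. Of the 10 members, 6 passed the filter and 4 were called higher, beside 11.1% higher and 12.9% lower of 18488 genes, from which nothing is read. KRT6A was higher by 2.79 (SE 0.162) on the log2 scale. KRT5 was higher by 2.00 (SE 0.0673), KRT7 by 0.39 (SE 0.0681) and KRT80 by 0.25 (SE 0.0615). KRT8 (log2 fold change -0.22, SE 0.401) and KRT18 (0.30, SE 0.537) were not called, and their groups overlapped. The value of KRT18 was 0.02 without 3D replicate 1 and 1.05 without 3D replicate 3. KRT6C had 13 counts in untreated and 47 in treated cells, a ratio of 4.16 (95% counting interval 2.21 to 8.38), and KRT6B had 3 and 6. MUC1 itself was at 207 ± 21.8 CPM without and 255 ± 10.2 CPM with GO-203 (SD, n = 3). Both fibroblast markers rose, from a sum of 56.5 to 62.6 CPM to one of 105 to 112 CPM, none of the 5 mesenchymal markers passed the test, nor did ITGB4, GATA3 or PECAM1, and the part of the fibroblast markers was not tested.

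The comparison of DOX with vehicle in tet-MYCshRNA mammospheres asks which keratins differ when MYC is silenced, in libraries that took no part in selecting KRT6A. The earlier results of these libraries were known when the members were chosen. Of the 10 members, 4 passed the filter, KRT6A through the DOX group alone. Of the other 3, KRT5 and KRT7 passed the test as higher, beside 30.3% higher and 28.1% lower of 19951 genes. KRT6A, for which no p-value is given, was higher by 4.15 (SE 0.396), a ratio of counts of 18.9 (95% counting interval 11.7 to 32.5) against 18 counts with vehicle. KRT5 rose by 3.65 (SE 0.187, adjusted p = 1.46e-07) and KRT7 by 2.06 (SE 0.142, adjusted p = 1.0e-06, both edgeR). KRT80 did not pass, with a log2 fold change of -0.17 (SE 0.0847, adjusted p = 0.116). Both fibroblast markers rose here too, from a sum of 53.1 to 59.8 CPM to one of 85.6 to 129 CPM. Of the mesenchymal markers FN1, TWIST1, CDH2 and ZEB1 rose and VIM fell. Luminal ESR1 (1.45, from 0.339 to 0.967 CPM on average), basal ITGB4 (1.29) and endothelial PECAM1 (0.45) rose as well, while the endothelial VWF had 2 and 0 counts. Basal TP63 did not pass the test (0.80, adjusted p = 0.345, edgeR). The luminal CDH1 (10 and 4 counts), PGR (6 and 0) and EPCAM (2 and 0) were lower with DOX but too low to test, and GATA3 was not tested either. The part of these genes was not tested.

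Neither KRT8 (5 and 6 counts) nor KRT18 (5 and 5) was tested on MYC silencing, and the 95% counting intervals of their ratios, 0.425 to 6.92 and 0.32 to 6.05, hold both a rise and a fall. KRT6C had 0 counts with vehicle and 23 with DOX, at least 10.7-fold higher, with the same limit on reads shared with KRT6A. KRT15, a type I keratin of basal cells that was not a member, fell from 56, 58 and 32 counts to 8, 6 and 2 (log2 fold change -2.68, SE 0.509, adjusted p = 0.00125, edgeR). MUC1 was higher in the MYC-silenced cells, at 167 ± 27.7 against 69.0 ± 3.84 CPM (SD, n = 3; log2 fold change 1.25, SE 0.108, adjusted p = 5.06e-06, edgeR), whereas in the MUC1-silenced cells it was lower. Whether the keratin changes on silencing MUC1 and MYC differ was not tested, because the first of them chose KRT6A.

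**Figure D3:**
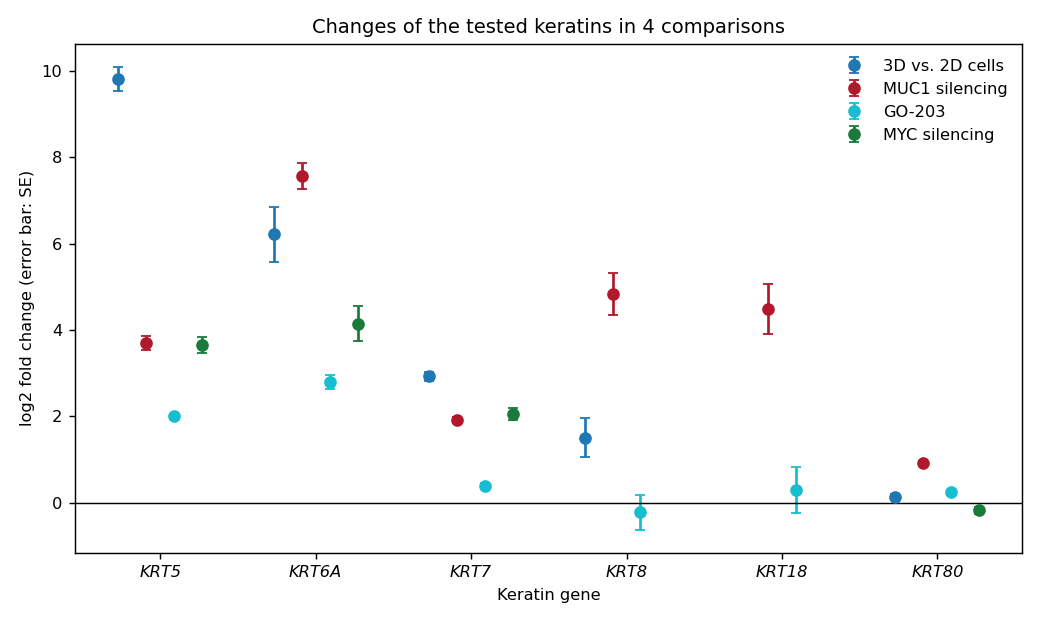
Log2 fold change with its SE for each member that passed the filter on low counts, other than KRT6B, which had 0 counts in its vehicle group, in the 4 comparisons (colours). KRT5, KRT6A and KRT7 lie above 0 in each comparison, KRT8 and KRT18 have their largest plotted values on MUC1 silencing, and KRT80 lies between -0.17 and 0.93.

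Within the chromosome 12 cluster the higher keratins were not all neighbours. Of 27 keratin genes there, 23 were listed in the count table and 4 had at least 1000 counts in all, namely KRT80 and KRT7 at one end and KRT6A and KRT5 in the middle. Of the 28 keratin genes of the chromosome 17 cluster, 16 were listed and 1, KRT10, had that many. KRT5 and KRT8 were the members with a RefSeq promoter window. The 250 bases before the KRT5 start site (GRCh38.p14, chr12:52520395-52520644, minus strand) are shown because KRT5 went from 4 counts in 2D to 3989 in 3D cells, with a TATA-like ATAAAA in capitals that begins 29 bases before the start. This RefSeq start is also that of the canonical GENCODE transcript, and since 1 of the 11 GENCODE transcripts starts further upstream, 136 of the 250 bases lie within the gene span given above.
KRT5 upstream: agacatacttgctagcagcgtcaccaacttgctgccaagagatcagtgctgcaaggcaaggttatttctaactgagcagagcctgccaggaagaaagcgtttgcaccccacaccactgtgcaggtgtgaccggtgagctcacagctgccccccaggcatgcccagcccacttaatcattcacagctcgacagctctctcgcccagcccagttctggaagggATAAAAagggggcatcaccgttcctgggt
The 300-base windows of KRT5 and KRT8, which reach 50 bases past the start, were searched on both strands for ATAAAA, the E-box CACGTG bound by MYC and the AP-1 motif TGANTCA. Neither held CACGTG or TGANTCA, and KRT8's held none of the 3. The KRT8 window (chr12:52926420-52926719) lies inside the span of the gene (chr12:52897187-52949954, minus strand), and other start sites of KRT8 were not searched. Of 35116 such windows, 16% hold ATAAAA, 7.26% CACGTG and 7.71% TGANTCA.

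**Figure D4:**
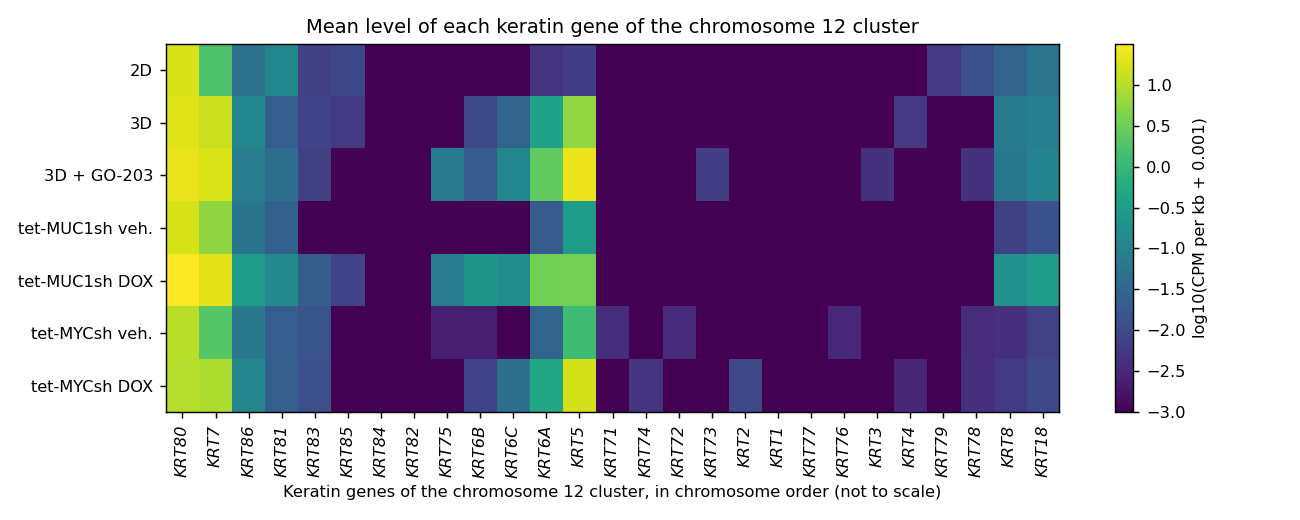
Mean level of each keratin gene of the chromosome 12 cluster by group, as log10 of CPM per kb + 0.001, with the genes in chromosome order and not to scale. KRT80, KRT7, KRT6A and KRT5 stand out from genes at or near 0, and the row of MUC1-silenced cells is also brighter at KRT6B, KRT6C, KRT8 and KRT18.

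The other keratin genes were mostly too low to test. Of 45 other keratin genes, 29 were listed, and 1, 5, 2 and 3 were tested in the comparisons of 3D and 2D cells, MUC1 silencing, GO-203 and MYC silencing. On MUC1 silencing KRT86 rose and KRT10 fell, and KRT6C and KRT81 rose too but had passed the filter through the DOX group alone. Under GO-203 KRT6C, which passed the filter through the treated group alone, was the 1 that rose, and on MYC silencing KRT15 alone fell. The gene lists that follow are to be read beside the shares of all tested genes that rose and fell, which were 32.0% and 31.7% in 3D against 2D cells, 30.7% and 31.6% on MUC1 silencing, 11.1% and 12.9% under GO-203, and 30.3% and 28.1% on MYC silencing.

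The desmosome and hemidesmosome genes, whose products anchor keratin filaments at the membrane, were tested at 13 to 15 of 22 genes. In 3D against 2D cells 5 rose and 7 fell (median log2 fold change -0.244), with ITGB4, the hemidesmosome integrin, up by 4.24 (SE 0.112, adjusted p = 1.08e-14) and the desmosomal cadherin DSG2 at -3.93 (SE 0.0685, adjusted p = 8.74e-17) by edgeR. On MUC1 silencing 10 rose and 2 fell (median 0.639), with DSG2 up by 2.33 (SE 0.0751, adjusted p = 5.26e-16) and PERP, a desmosomal membrane protein, by 1.26 (SE 0.139). On MYC silencing 8 rose and 2 fell (median 0.477), with JUP, the desmosomal plakoglobin, up by 2.79 (SE 0.173, adjusted p = 4.93e-07) and DSG2 by 1.68 (SE 0.152). Under GO-203 2 rose and 3 fell (median -0.146), with the integrin ITGA6 at -0.64 (SE 0.0586) and DSG2 at 0.30 (SE 0.125). DST, which links keratin to hemidesmosomes and has other isoforms, was the most abundant of the list at 554 CPM on average.

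Of the 18 epithelial transcription factors, 11 to 13 were tested, of which 4, 2, 0 and 1 had passed the filter through 1 of the groups alone in the 4 comparisons (TP63 in the first 2) and are left out of the counts that follow. In 3D against 2D cells 4 rose and 1 fell, and the most abundant, TFAP2C, rose from 1.85 ± 0.0545 to 77.1 ± 2.99 CPM (SD, n = 3; adjusted p = 2.24e-17, edgeR). SOX15 rose by 3.86 (SE 0.199). On MUC1 silencing 6 rose and 1 fell, with SOX15 up by 2.05 and TFAP2C by 1.09. Under GO-203 3 rose and 3 fell, and SOX15 (-1.10) and TFAP2C (-0.60) were among those that fell. On MYC silencing 3 rose and 3 fell, with KLF4, a factor of epithelial differentiation, up by 1.95 (SE 0.0677, adjusted p = 1.25e-08, edgeR) and SOX15 at -0.68 (SE 0.191). The medians were 0.448, 0.499, 0.234 and 0.182 in that order.

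The keratinocyte activation and cornified envelope genes, many of which accompany KRT6A in stressed skin, were seldom expressed. Of 19 genes, 15 were listed and 5, 8, 5 and 3 tested in the same order. On MUC1 silencing 7 of 8 rose, but SPRR2D, S100A8, S100A9 and PI3 had passed the filter through the DOX group alone. Of the other 4, 3 rose (median log2 fold change 2.01), including the list's most abundant gene SFN, an inhibitor of cell cycle progression, from 0.166 ± 0.175 to 4.35 ± 0.255 CPM (SD, n = 3; adjusted p = 1.36e-10, edgeR). Under GO-203 2 of 5 rose, in 3D against 2D cells 1 rose and 1 fell, and on MYC silencing 1 of 3 rose and 1 fell. The gene that rose in 3D cells is S100A9, which passed the filter through them alone.

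Of the intermediate filament genes other than keratins, such as VIM and the lamins, some rose and others fell. Of 16 such genes 9 were tested each time, and 2, 5, 1 and 5 rose while 6, 3, 4 and 3 fell, in the same order of comparisons (medians -0.310, 0.176, -0.210 and 0.373). Of these, SYNC passed the filter on MUC1 silencing through the DOX group alone. SYNC (-3.79, SE 0.222) and the lens filament gene BFSP1 (-2.13, SE 0.26) fell in 3D against 2D cells, and the lamin gene LMNB1 fell on MUC1 silencing (-0.38, SE 0.0454). SYNM fell under GO-203 (-0.37, SE 0.151) and rose on MYC silencing (1.85, SE 0.105). INA, a neuronal filament gene, rose on MUC1 silencing (1.89, SE 0.0999, adjusted p = 1.25e-12) and on MYC silencing (1.39, SE 0.106, adjusted p = 2.09e-06) and fell under GO-203 (-0.41, SE 0.0688, adjusted p = 0.000184, all edgeR).

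The genes whose levels were most like KRT6A's over the 21 libraries, by Pearson's r on log2 CPM among 12305 genes with a mean count of at least 100, were DTX4 (r = 0.943), PDZD2 (0.935), INPP5K (0.917), PTGER4 (0.915) and STRA6 (0.909). DTX4 is of the Deltex family of ubiquitin ligases, INPP5K is a phosphoinositide phosphatase, PTGER4 is a prostaglandin E receptor and STRA6 is a retinol transporter. DTX4 was at 0.171 ± 0.0361 CPM in 2D cells and 13.9 ± 0.567 CPM in MUC1-silenced cells (SD, n = 3). KRT7 ranked 10th with 0.899, KRT5 37th with 0.816 and KRT80 765th with 0.512. The libraries fall into 7 groups of 3, so that they are not independent points, and these values describe the pattern only.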

How the data were processed

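Per the labels and the study's methods, stranded poly(A) libraries (TruSeq Stranded mRNA) were sequenced, reads were aligned to GRCh38 with STAR (2.7.3a in the submitters' processing notes) and counted per gene with featureCounts. The deposited values are raw counts of reads per gene, without normalization. The annotation release, strand setting and treatment of reads matching several genes are not given in the sources used here. Cells of the table left blank in a block of libraries (4952 to 7587 genes) were read as 0.

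Genes were filtered with filterByExpr, scaled by TMM and tested on the 6 libraries of each comparison with edgeR 4.0.16's quasi-likelihood test in R 4.3.3, with Benjamini-Hochberg adjustment over all genes tested and a threshold of 0.1. SE is the absolute log2 fold change divided by the square root of F. Counting intervals are exact (Clopper-Pearson, 95%) on summed counts, cover counting error only, and treat reads as independent. A fold against 0 counts used a floor of 3 counts over the group. Replicate pairs differed by more than sampling noise (chi-square per degree of freedom 4.36 to 52.8). Positions, exon lengths and transcripts are GENCODE 44's, and promoters RefSeq's. The steps were tested on simulated data. DESeq2 1.42.0, other scalings, filters, thresholds and left-out libraries were the alternatives.

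The members and gene lists were chosen with earlier results of these data known. Named are all members, KRT6C, KRT15, KRT16, VIM, MUC1, MYC, each list's most abundant gene and, per comparison, its 2 largest changes that passed the test with a mean count of at least 100, and the 5 genes most like KRT6A (prior count 2). KRT7-AS, KRT81, KRT86, genes that passed the filter through 1 group alone (no library of the other reached its minimum, 10 counts at the median library size) and the marker genes were named after their values were seen. No authors' fold changes were used.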

Additional observations from a re-analysis of the deposited data

How the results depend on the processing

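The number of members called at the adjusted p threshold moved most with the filter and the choice of mammospheres. The share of all genes called under each alternative is not given here, and the counts include members that passed the filter through 1 group alone. Nothing about the keratins is therefore read from the counts of called members in this section, including those of the replicate block. Requiring at least 10 counts in every library, which removes genes near 0 in a group, left 1 called member for mammospheres against monolayer and 3 on MUC1 silencing. Requiring an absolute log2 fold change above 1.5 left 2 under GO-203. When vehicle-treated tet-MUC1shRNA cells replaced the 3D group, 2 members were called, and KRT80 turned to -0.0214. With the vehicle-treated tet-MYCshRNA mammospheres, 2 were called, 1 higher and 1 lower, and KRT80 turned to -0.63. Without any single library, 4 to 5 members were called in 3D vs. 2D cells, 7 to 8 on MUC1 silencing, 4 under GO-203 and 3 to 4 on MYC silencing. The eighth on MUC1 silencing entered by the filter, and the fourth on MYC silencing is KRT80, which was also called with RLE factors (adjusted p = 0.0977), library size alone (0.0633), at least 10 counts (0.0915), all 21 libraries in one fit (0.0814) and without tetMYCsh vehicle replicate 3 (0.0787). Its call in 3D vs. 2D cells was lost with library size alone (adjusted p = 0.357) and at least 10 counts (0.12). The fit with no filter beyond 1 count estimated the same spread for all genes, and its p-values are not used. KRT7 kept its direction in the 4 comparisons under all alternatives that could test it, and so did KRT5 on MUC1 silencing, GO-203 and MYC silencing. The direction of KRT6A, and that of KRT5 in 3D vs. 2D cells, was set beforehand by the selection or the filter, so its constancy is not read.

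The replicate numbers did not pair the samples (mean correlation of deviations between -0.087 and 0.058), and a fit with replicate number as a block called 5, 7, 4 and 3 members. Scaling by library size alone moved the median of all genes by 0.165 on MUC1 silencing, where KRT80, the smallest change, stayed higher at 1.09. Members with under 500 counts over all libraries are limited by depth.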
